A study of Arabidopsis thaliana with 36 samples.

Results

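Roots were compared with mature rosette leaves of the Arabidopsis thaliana wild type Columbia-0 (Col-0), both taken from plants supplied with 200 µM phosphate (Pi). The comparison used the 6 libraries that the labels give as Col-0 at 200 µM Pi, 3 of leaf and 3 of root, out of 36 libraries in all. Of the 27444 genes in the deposited table, 19146 had a mean of at least 1 FPKM over the 6 libraries and were tested. FPKM is the number of sequenced fragments assigned to a gene, scaled to the length of its sequence and to the depth of the library. The whole study also covered a ppsr1 T-DNA knockout (KO) and an AtPPSR1 overexpression line (OE), and Pi at 0 µM. Plants of each genotype grew hydroponically at 200 µM Pi for 4 weeks and then spent 24 h with or without Pi before leaves and roots were harvested. The solution held nitrate as its nitrogen source. The labels call the 3 libraries of a group independent biological replicates and do not say how many plants went into a library.

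Leaves fix carbon in chloroplasts and send sugar to the rest of the plant, while roots live on that sugar, take up water and mineral ions, and pump many of them into the xylem. Root ions pass a ring of cells, the endodermis, whose walls carry a lignin band, the Casparian strip, and later a lipid coat of suberin. Leaf surfaces are covered instead by cutin and wax. Many plant gene families hold separate copies for chloroplasts and for root plastids, or for the root surface and the vein.

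Each gene is described by its FPKM in the libraries and by a log2 difference, root minus leaf, of FPKM + 1. A number in parentheses after a gene is this log2 difference ± its standard error (SE). A gene is called higher in an organ when its adjusted p was under 0.05 (limma, Benjamini-Hochberg over all 19146 genes, n = 3 against 3). A dagger (†) marks a gene whose level is uncertain. Such a gene either shares over 10% of its 31-base words with another gene or has over 10% of its coding bases under another gene's exons, and no source used here gives the strand setting of the counting. In whole organs, fewer cells of a type and less RNA per cell cannot be told apart.

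Read numbers are not in the table and were estimated from the steps between low values of short genes. The estimates for the leaf libraries were 12220000, 12690000 and 6670000 reads and those for the root libraries 7820000, 11770000 and 11070000. More genes reached 1 FPKM in root (18626 to 18895 per library) than in leaf (15810 to 16451). The 100 most abundant genes took 41.0% to 46.9% of the summed FPKM in leaf and 20.8% to 25.4% in root. The libraries carried their labelled organ's markers. The 49 nuclear genes of the photosystems and light-harvesting antennae summed to between 230816 and 351212 FPKM per leaf library and between 2537 and 4891 per root library. The Casparian strip list summed to 1093 to 1418 FPKM in root and 25.1 to 42.1 in leaf. Flower and seed markers were near 0, with at most 3.52 FPKM in leaf and 11.1 in root over 12 genes, and only PISTILLATA, a floral homeotic gene, reached the threshold for testing (7.14, 2.44 and 7.06 FPKM in root).

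Small amounts of each organ's most specific transcripts were read in the other. The 15 genes with the largest difference towards root stood, at the median, at 0.14%, 0.327% and 0.0121% of their root mean in leaf replicates 1, 2 and 3. The 15 largest towards leaf stood at 0.0148%, 0.0438% and 0.0507% of their leaf mean in root replicates 1, 2 and 3. Both sets were chosen by their difference in these same libraries, so low percentages are partly set by that choice. Leaf replicate 3 was the lowest for root genes and also the shallowest leaf library. The part these traces play in the size of single differences was not tested.

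On the deposited scale, 8602 of the 19146 genes tested were higher in root (44.9%) and 3220 were higher in leaf (16.8%). A difference of at least 2 on the log2 scale, a 4-fold change, was called for 3540 genes towards root (18.5%) and for 1691 towards leaf (8.83%). The median gene lay at 0.67 towards root. FPKM values are shares of a library, and the part that the abundant leaf transcripts play in that median was not tested. Scaling the libraries by the median of ratios moved that median by -0.52, to 0.15, and gave 5824 genes higher in root (30.4%) and 4520 higher in leaf (23.6%). The share of calls towards root was 72.8% on the deposited scale and 56.3% after scaling. All 5824 root calls after scaling were among the 8602, all 3220 leaf calls remained, and 0 genes changed direction. The scaling divides all genes of a library by the same factor, and it moved the median towards leaf. That outcome was therefore largely set by the method. Removing each library's trend with coding length instead gave 5446 genes higher in root and 5580 higher in leaf, with 49.4% of calls towards root. That step also centres the differences near 0 by construction (median -0.03). Its near-even split therefore does not measure the part that gene length plays. The balance between the organs depends on the scaling. Counts of a list after median-of-ratios scaling are given in its paragraph where they differ from the deposited scale. A gene near 0 in 1 organ passed the filter only through the other, so the counts over lists below are descriptions.

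**Figure D1:**
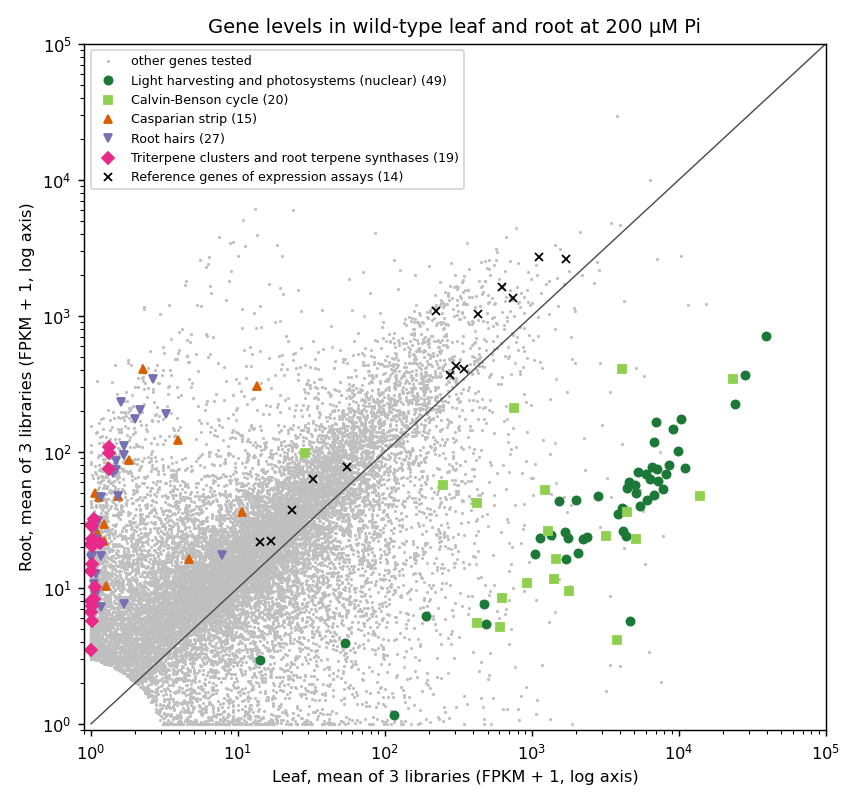
Mean level of each gene tested in leaf (horizontal) and root (vertical) of Col-0 at 200 µM Pi, as FPKM + 1 on log axes, with 6 gene lists marked and the line of equal levels. The photosystem and Calvin-Benson genes form a cloud about 2 orders of magnitude below the line, the Casparian strip, root hair and terpene genes hug the left edge, and the reference genes lie near or above the line.

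The gene with the largest difference towards root was PYK10 and towards leaf ECS1. PYK10, the main beta-glucosidase of endoplasmic reticulum (ER) bodies, was at 5.92, 28.9 and 1.52 FPKM in the leaf libraries and at 5267, 5524 and 7707 in the root libraries, a log2 difference of 9.56 ± 0.72 (adjusted p = 3.21e-06, limma). The groups do not overlap, and the lowest root library is more than 100 times the highest leaf library. The other large root genes included the major latex protein relatives MLP329 (9.52 ± 0.71) and MLP328 (9.08 ± 0.63), the osmotin OSM34 (9.44 ± 0.71), a defensin-like gene, AT4G22212 (9.47 ± 0.87), the flavonol synthase homologue FLS5 (9.04 ± 0.62), the peroxidase gene AT5G19890 (9.0 ± 0.31) and the trypsin inhibitor KTI1 (8.89 ± 0.77). ECS1, whose product lies in the cell wall, had 6128, 12182 and 4271 FPKM in leaf against 0, 0.3 and 2.82 in root (-11.97 ± 0.53, adjusted p = 2.4e-07, limma). CA1, the chloroplast carbonic anhydrase, followed a like pattern, with 1019, 1585 and 1388 FPKM in leaf and 0.24, 0 and 0 in root (-10.25 ± 0.26). Others were OEP6, a chloroplast outer envelope protein (-10.37 ± 0.33), the aldolase FBA5 (-9.81 ± 0.25), NCED4, a carotenoid-cleaving enzyme (-9.58 ± 0.23), PIFI of chlororespiration (-9.51 ± 0.26) and AT1G76960, a small membrane protein gene at 1752, 2813 and 1112 FPKM in leaf and at 0 in every root library.

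By level, leaf was led by LHCB1.3† (27121, 49814 and 40581 FPKM), the antenna protein of photosystem II, by PSBR of the same photosystem (27524, 31630 and 25583), by LHCB1.5† (20437, 28070 and 23745), another antenna gene, and by RBCS1A† (22520, 25098 and 23195), a small subunit of Rubisco. Root was led by the metallothionein MT1A† (16477, 56135 and 16317 FPKM) and by the glycine-rich protein GRP9 (7190, 12602 and 11019). Replicate 2 stood apart for MT1A†, at over 3 times the other root libraries. Of the 10 most abundant root genes, 4 did not differ detectably between the organs. They were the dehydrin gene AT1G54410 (0.25 ± 0.62), AT2G33830 (0.48 ± 0.41), the peroxidase PRXR1 (0.18 ± 0.44) and TCTP (0.84 ± 0.39, adjusted p = 0.0903, limma). TCTP is annotated as translationally controlled tumor protein.

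**Figure D2:**
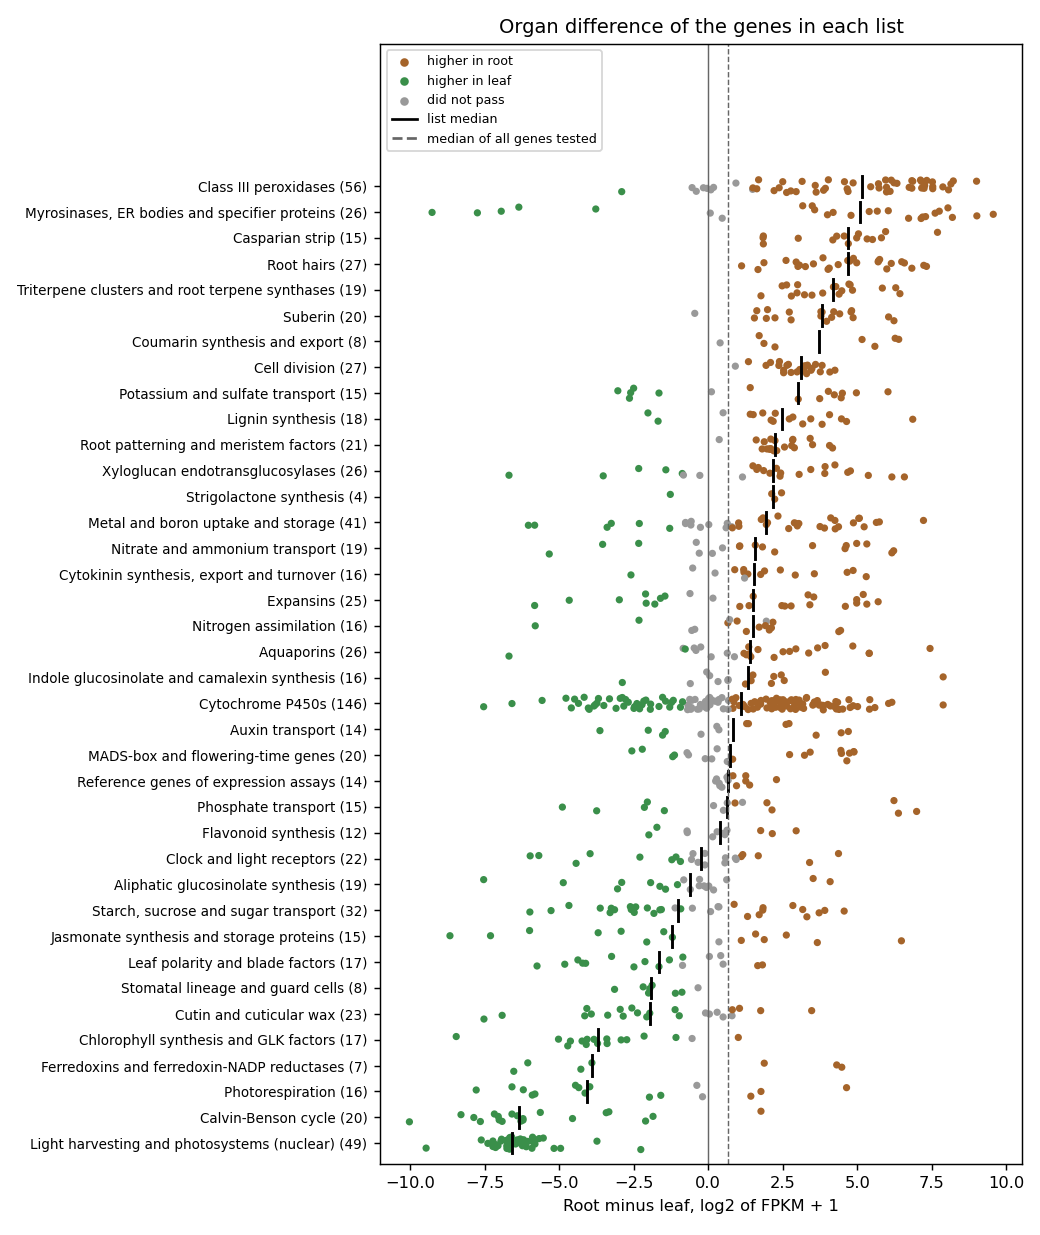
Log2 difference, root minus leaf, of every tested gene in 34 lists fixed by locus and 4 families found by annotation, with the number of genes tested in parentheses. Dots are coloured by call, short bars are list medians, and the dashed line is the median of all genes tested (0.67). Light harvesting, the Calvin-Benson cycle and photorespiration lie at the leaf end, and peroxidases, myrosinases, Casparian strip and root hair genes at the root end.

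Photosynthesis was higher in leaf from antenna to carbon fixation, with a few isoforms that went the other way. All 49 genes of the light-harvesting and photosystem list were higher in leaf, with a median of -6.59 and a range from -9.46 to -2.26. They made up 18.6% to 25.5% of the summed FPKM of leaf libraries and 0.224% to 0.402% of root libraries. LHCA4, an antenna protein of photosystem I, was at 7577, 12195 and 11205 FPKM in leaf and 138, 198 and 185 in root (-5.87 ± 0.31), and PSAO, another subunit of that photosystem, differed by -7.22 ± 0.30. The smallest difference was that of LHCB7, an antenna gene of low abundance (11.8, 14.3 and 13.1 FPKM in leaf, 2.34, 2.25 and 1.29 in root).

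Of 20 Calvin-Benson genes, 19 were higher in leaf and 1 in root. Small subunit genes of Rubisco, the carbon-fixing enzyme, ranged from -10.02 ± 0.43 for RBCS2B† to -6.21 ± 0.39 for RBCS1A†. Rubisco activase, RCA, was at 5126, 3411 and 4880 FPKM in leaf and 44.3, 19.0 and 42.9 in root (-7.01 ± 0.36). The exception was in the CP12 family, whose members hold 2 enzymes of the cycle in an inactive complex. CP12-2 was at 1960, 1522 and 1936 FPKM in leaf and 4.84, 8.80 and 11.9 in root (-7.64 ± 0.32). CP12-3 was at 37.4, 24.7 and 21.1 in leaf and 66.3, 109 and 116 in root (1.77 ± 0.32), and no root library fell into the leaf range.

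Photorespiration, which recycles the product of Rubisco's reaction with oxygen, had 11 of 16 genes higher in leaf (12 after scaling), 3 higher in root and 2 that did not pass. The glycolate oxidase GOX1† was at 1632, 1163 and 1504 FPKM in leaf and 4.52, 4.23 and 8.35 in root (-7.78 ± 0.29). Its relative GOX3 was at 1.11, 0.64 and 0.14 in leaf and 37.7, 43.8 and 34.6 in root (4.64 ± 0.31). The glycerate kinase GLYK, the last step of the pathway, was also higher in root (115, 115 and 132 FPKM in leaf and 513, 544 and 253 in root, 1.77 ± 0.32), as was the serine hydroxymethyltransferase SHM2 (1.43 ± 0.36), while the leaf photorespiratory SHM1 differed by -3.97 ± 0.45. The plastid glycolate exporter PLGG1 was at 76.0, 99.7 and 125 FPKM in leaf and at 0, 0.11 and 0 in root.

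Chlorophyll synthesis had 15 of 17 genes higher in leaf, 16 after scaling. The magnesium chelatase subunits CHLI1 (-3.40 ± 0.26), CHLD (-2.73 ± 0.28) and CHLH (-3.83 ± 0.41), the cyclase subunit CRD1 (-5.02 ± 0.29) and the light-dependent reductase PORC (-4.71 ± 0.34) were among them. The first committed step, glutamyl-tRNA reductase, was split: HEMA1 did not pass (-0.54 ± 0.30, called higher in leaf after scaling) and HEMA2 was higher in root (1.01 ± 0.29), a call that scaling ended. GLK1, a transcription factor of chloroplast development, was at 565, 587 and 482 FPKM in leaf and 0.68, 0.39 and 0.62 in root (-8.45 ± 0.24), while its partner GLK2 kept 6.06, 11.9 and 11.6 FPKM in root (-4.62 ± 0.29).

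Ferredoxins carry electrons, in leaves from photosystem I and in roots from NADPH, and each direction has its own reductase. All 7 genes of the list differed, 4 towards leaf and 3 towards root. FD2, the main leaf ferredoxin, was at 2869, 3019 and 3159 FPKM in leaf and 174, 129 and 166 in root (-4.27 ± 0.26), and FD1 differed by -3.90 ± 0.33. FD3, the root-type ferredoxin, was at 25.5, 23.3 and 19.9 in leaf and 524, 475 and 413 in root (4.31 ± 0.24). The leaf reductases LFNR1 (-6.05 ± 0.36) and LFNR2 (-6.52 ± 0.37) and the root reductases RFNR1 (1.88 ± 0.25) and RFNR2 (4.48 ± 0.28) divided in the same way. In none of the 7 genes did a leaf library fall among the root libraries. Such separation was common among the 19146 genes tested. In 9495 of them all root libraries lay above all leaf libraries, and in 3556 the reverse held.

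Nitrogen assimilation reduces nitrate and builds it into glutamine, glutamate and asparagine. Of 16 genes, 10 were higher in root and 2 in leaf, or 7 and 4 after scaling. The nitrate reductases differed between copies: NIA1 was at 36.9, 17.4 and 23.0 FPKM in leaf and 918, 337 and 490 in root (4.38 ± 0.40), while NIA2 was at 348, 279 and 234 in leaf and 272, 144 and 228 in root (-0.45 ± 0.31), a difference called towards leaf only after scaling. The plastid glutamine synthetase GLN2 was higher in leaf (849, 537 and 854 against 147, 118 and 180 FPKM, -2.32 ± 0.29), and of the cytosolic forms GLN1;3 (1.71 ± 0.34), GLN1;2 (1.28 ± 0.27) and GLN1;4 (0.97 ± 0.24) were higher in root, the last 2 not after scaling. GLN1;1 did not pass (0.72 ± 0.33). Glutamate synthase was split by its electron donor and copy. GLU1, the ferredoxin form of leaves, was at 117, 29.9 and 111 FPKM in leaf and 0.49, 0.24 and 0.27 in root (-5.80 ± 0.48), whereas GLU2 (8.30, 3.18 and 7.94 FPKM in leaf and 45.8, 19.5 and 28.8 in root) and the NADH form GLT1 (2.17 ± 0.47) were higher in root. The glutamate dehydrogenases GDH1, GDH2 and GDH3 were all higher in root, GDH2 most (47.3, 20.6 and 25.7 FPKM in leaf and 690, 705 and 577 in root, 4.44 ± 0.32). The asparagine synthetase ASN1 did not pass, since leaf replicate 1 (137 FPKM) lay above all 3 root libraries (103, 97.7 and 105) and the other leaf libraries at 10.2 and 11.2.

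Sugar metabolism was divided by step. Of 32 genes of starch, sucrose and sugar transport, 16 were higher in leaf, 11 in root and 5 did not pass, or 18 in leaf and 8 in root after scaling. On the leaf side stood TPT, which exports triose phosphate from the chloroplast (1429, 1755 and 1786 FPKM in leaf and 29.7, 32.3 and 75.4 in root, -5.27 ± 0.36), the starch synthesis subunits ADG1 (-3.25 ± 0.29) and APL1† (-4.67 ± 0.25), the sucrose exporters SWEET11 (-5.98 ± 0.43) and SWEET12 (-2.43 ± 0.36) and the phloem loader SUC2 (-1.82 ± 0.27). On the root side stood enzymes that break sucrose down: the sucrose synthase SUS4 (2.9, 0.29 and 0.12 FPKM in leaf and 102, 7.42 and 84.3 in root, 4.56 ± 0.88), the cell wall invertase CWINV1 (3.31 ± 0.50) and the cytosolic invertase CINV1 (3.17 ± 0.30), with the vacuolar sugar carriers SWEET16 (3.91 ± 0.34) and SWEET2 (3.72 ± 0.27). SUS4 in root replicate 2 was far below the other root libraries and still above every leaf library. SUS1 (1.83 ± 0.52), GPT1 (1.32 ± 0.28) and CINV2 (0.87 ± 0.30) lost their root call on scaling.

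**Figure D3:**
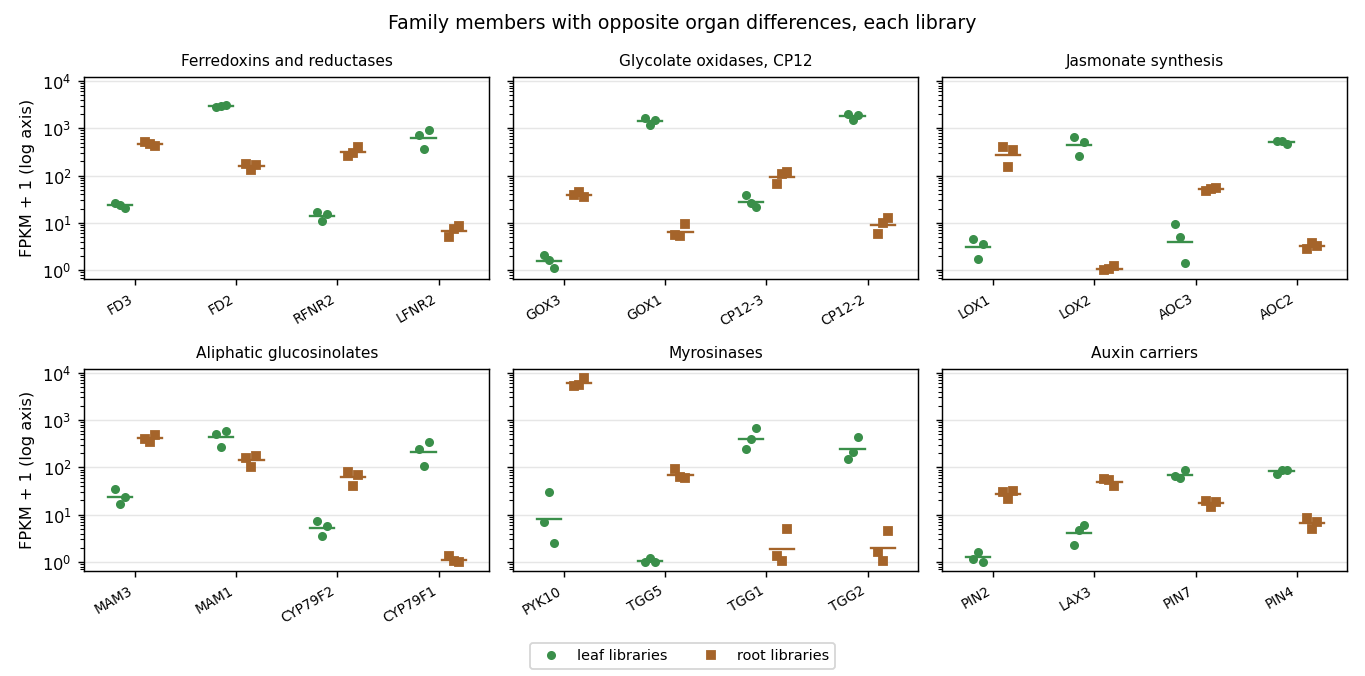
FPKM + 1 (log axis) in each of the 3 leaf (green circles) and 3 root (brown squares) libraries for members of 6 gene families. Points are libraries and short lines are means on the log scale. In the panels of myrosinases and auxin carriers the pair on the left stands higher in root and the pair on the right higher in leaf, and in the other panels root-higher and leaf-higher members alternate.

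The surface and barrier genes divided by organ. For the root barrier, all 15 tested Casparian strip genes were higher in root (median 4.70). CASP1, which forms the membrane platform of the strip, was at 0.26, 3.56 and 0 FPKM in leaf and 395, 208 and 613 in root (7.69 ± 0.58). The lignin peroxidase PER64 (5.95 ± 0.32), the blue copper protein UCC1 (5.51 ± 0.31) and the endodermal transcription factor MYB36 (4.18 ± 0.31) were also higher in root, as were the peptides CIF1 and CIF2, which signal the state of the strip to the receptor GSO1 (3.02 ± 0.27). Of 20 suberin genes, 19 were higher in root and KCS20, shared with wax synthesis, did not pass (-0.45 ± 0.28, called higher in leaf after scaling). The fatty alcohol caffeoyl transferase FACT was at 0.26, 1.29 and 0 FPKM in leaf and 111, 98.4 and 109 in root (6.23 ± 0.34), and the fatty acid hydroxylase CYP86A1 at 1.01, 0.72 and 0 in leaf and 124, 102 and 78.3 in root (6.05 ± 0.34). Their regulators MYB92, MYB93, MYB53, MYB41, MYB9† and MYB107 were all higher in root, by 1.63 to 4.79.

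For the leaf surface, 14 of 23 cutin and wax genes were higher in leaf and 4 in root, or 14 and 2 after scaling. KCS6, the elongase of wax precursors, was at 653, 734 and 695 FPKM in leaf and 2.22, 2.39 and 3.99 in root (-7.52 ± 0.26), and CER1, the alkane-forming enzyme, at 112, 158 and 109 in leaf and 0, 0.04 and 0.10 in root (-6.91 ± 0.27). The wax exporters ABCG12 (-4.14 ± 0.25) and ABCG11 (-3.92 ± 0.30) were also higher in leaf. The acyltransferases for cutin were not uniform. GPAT8 was higher in leaf (-2.56 ± 0.32), GPAT4 did not differ detectably (-0.09 ± 0.33), and GPAT6 was at 0.76, 0.58 and 1.69 FPKM in leaf and 28.8, 13.99 and 21.8 in root (3.47 ± 0.35), together with CYP86A4 (1.76 ± 0.28).

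Of the 27 tested root hair genes, 27 were higher in root, 25 after scaling, with a median of 4.68. The set runs from the regulators RHD6 (2.61 ± 0.27), RSL4 (3.06 ± 0.26) and RSL2 (3.85 ± 0.34) to the wall proteins of the growing hair. RHS13 was at 0.82, 4.12 and 0 FPKM in leaf and 335, 399 and 285 in root (7.32 ± 0.51), and RHS19 differed by 7.23 ± 0.41. The LRX genes were uneven among root libraries: LRX1, an extensin of the hair wall, was at 63.3, 7.68 and 66.9 FPKM and LRX2 at 9.58, 0.79 and 9.56, in each case lowest in replicate 2. Of 21 root patterning factors, 20 were higher in root. SHORT-ROOT (SHR), made in the stele, was at 39.7, 40.7 and 40.1 FPKM in root and 8.20, 8.65 and 6.38 in leaf (2.24 ± 0.25). SCARECROW (SCR), its target, did not pass (0.37 ± 0.30), with 12.3, 15.3 and 11.5 FPKM in leaf and 22.1, 11.5 and 19.2 in root. The stem cell factor genes WOX5, PLT2 and BBM had root means of 1.8, 1.72 and 1.74 FPKM and stood below the threshold for testing.

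On the leaf side, 11 of 17 blade and polarity factors were higher in leaf, 12 after scaling. The 4 vegetative YABBY genes tested, which mark the lower side of lateral organs, were nearly silent in root: YAB5 was at 51.4, 51.5 and 55.1 FPKM in leaf and at 0 in each root library, and YAB1, YAB2 and YAB3 differed by -4.11 to -4.81. The upper-side factors of the HD-ZIP III class went otherwise: PHB (1.82 ± 0.37) and REV (1.66 ± 0.34) were higher in root, where they pattern the vascular tissue, and PHV did not pass (0.50 ± 0.32). Of 8 tested stomatal genes, 7 were higher in leaf, with low levels. The guard cell regulator FAMA was at 10.6, 4.12 and 10.6 FPKM in leaf and 0 in each root library. The early lineage factors SPCH and MUTE were at 0 in all 6 libraries.

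Genes of cell division, which is active in the root tip, were higher in root. Of 27 cell division genes, 26 were higher in root, with a median of 3.11. CDKB2;1, a mitotic kinase, was at 1.82, 2.59 and 4.45 FPKM in leaf and 37.9, 37.2 and 36.5 in root (3.33 ± 0.30), CDKB2;2 differed by 3.60 ± 0.31 and the replication clamp PCNA2 by 2.69 ± 0.27. The ribonucleotide reductase gene TSO2 did not pass (0.91 ± 0.39).

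Transporters of mineral ions were divided between the organs within most families. For Pi, 6 of 15 genes were higher in root and 5 in leaf, or 5 and 5 after scaling. The list median of 0.64 was next to the 0.67 of all genes. Of all genes tested, 44.9% were higher in root, a share near that of this list, and 16.8% in leaf. PHO1, which loads Pi into the xylem, was at 1.85, 1.64 and 1.91 FPKM in leaf and 269, 177 and 192 in root (6.23 ± 0.26, adjusted p = 2.01e-07, limma). The plasma membrane uptake carriers PHT1;1† (5.92, 6.41 and 0.19 FPKM in leaf and 694, 534 and 335 in root, 6.99 ± 0.63) and PHT1;2† (6.38 ± 0.34) stood with it, as did PHF1, which lets these carriers leave the ER (2.14 ± 0.27). The chloroplast carriers went to leaf: PHT2;1 was at 95.9, 99.8 and 102 FPKM in leaf and 9.85, 3.78 and 7.06 in root (-3.74 ± 0.32), and PHT4;1 differed by -4.89 ± 0.26. PHT1;4 (1.15 ± 0.46), the mitochondrial PHT3;1 (0.18 ± 0.25) and PHO1;H1 (0.51 ± 0.36) did not pass, and the vacuolar importer PHT5;1 (0.90 ± 0.28) passed on the deposited scale alone.

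For nitrate and ammonium, 12 of 19 genes were higher in root and 3 in leaf, or 10 and 4 after scaling. NPF7.3 (NRT1.5), which loads nitrate into the xylem, was at 6.78, 2.56 and 6.01 FPKM in leaf and 277, 164 and 271 in root (5.32 ± 0.36). NRT3.1, the partner subunit of high-affinity nitrate carriers, was at 43.3, 47.3 and 18.5 in leaf and 1130, 939 and 1227 in root (4.98 ± 0.36). The ammonium carriers were not alike: AMT1;3 was at 0.77, 1.69 and 0 in leaf and 150, 98.3 and 114 in root (6.16 ± 0.38), and AMT1;1† at 222, 235 and 139 in leaf and 235, 115 and 143 in root (-0.30 ± 0.33, not passed). The leaf genes were NPF2.13 (NRT1.7), which moves nitrate out of old leaves through the phloem (175, 123 and 119 FPKM in leaf and 1.92, 2.96 and 2.42 in root, -5.33 ± 0.27), the vacuolar NRT2.7 (-3.54 ± 0.29) and NPF6.2 (NRT1.4) of the petiole (-2.33 ± 0.33). The nitrate sensor and carrier NPF6.3 (NRT1.1) was higher in root (1.05 ± 0.30), not after scaling.

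For potassium and sulfate, 9 of 15 genes were higher in root and 5 in leaf. The potassium channel AKT1, which takes the ion up from soil, was at 2.86, 0.52 and 1.46 FPKM in leaf and 73.7, 72.4 and 80.5 in root (4.97 ± 0.35). Its silent partner subunit KC1 (3.74 ± 0.31), its activating kinase CIPK23 (3.02 ± 0.28) and the xylem-loading channel SKOR (4.23 ± 0.28) were higher in root as well. AKT2, the phloem channel, was at 14.02, 5.92 and 17.0 FPKM in leaf and 0.85, 0.60 and 1.61 in root (-2.64 ± 0.40). HAK5, an uptake carrier induced by low potassium, had a root mean of 1.4 FPKM and was not tested. For sulfate, SULTR1;2 was at 2.63, 2.01 and 2.21 FPKM in leaf and 267, 209 and 172 in root (6.03 ± 0.26) and SULTR1;1 differed by 4.5 ± 0.27, while SULTR2;1 of the veins (-2.60 ± 0.38) and the plastid carrier SULTR3;1 (-3.03 ± 0.32) were higher in leaf.

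Of 41 genes for metals and boron, 26 were higher in root and 6 in leaf, or 23 and 10 after scaling. IRT1, the iron uptake carrier, was at 0.08, 2.11 and 0 FPKM in leaf and 537, 113 and 178 in root (7.22 ± 0.60). The iron reductases were divided between the organs: FRO2, at the root surface, was at 0.61, 0.78 and 1.74 in leaf and 195, 50.7 and 95.6 in root (5.64 ± 0.46), and the chloroplast reductase FRO7† was at 77.3, 56.8 and 98.0 in leaf and 0.23, 0.45 and 0.40 in root (-5.82 ± 0.29). Root replicate 1 was the highest of the 3 root libraries for IRT1, FRO2 and NAS2 and replicate 2 the lowest. The regulator FIT (4.37 ± 0.28), the zinc pump HMA4 of the xylem (5.05 ± 0.43) and the boron channel NIP5;1 (4.26 ± 0.27) were higher in root. The phloem carriers OPT3 (-2.31 ± 0.28) and YSL1 (-3.25 ± 0.27) were higher in leaf, and ZIP1 (0.02 ± 0.26) did not differ detectably.

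**Figure D4:**
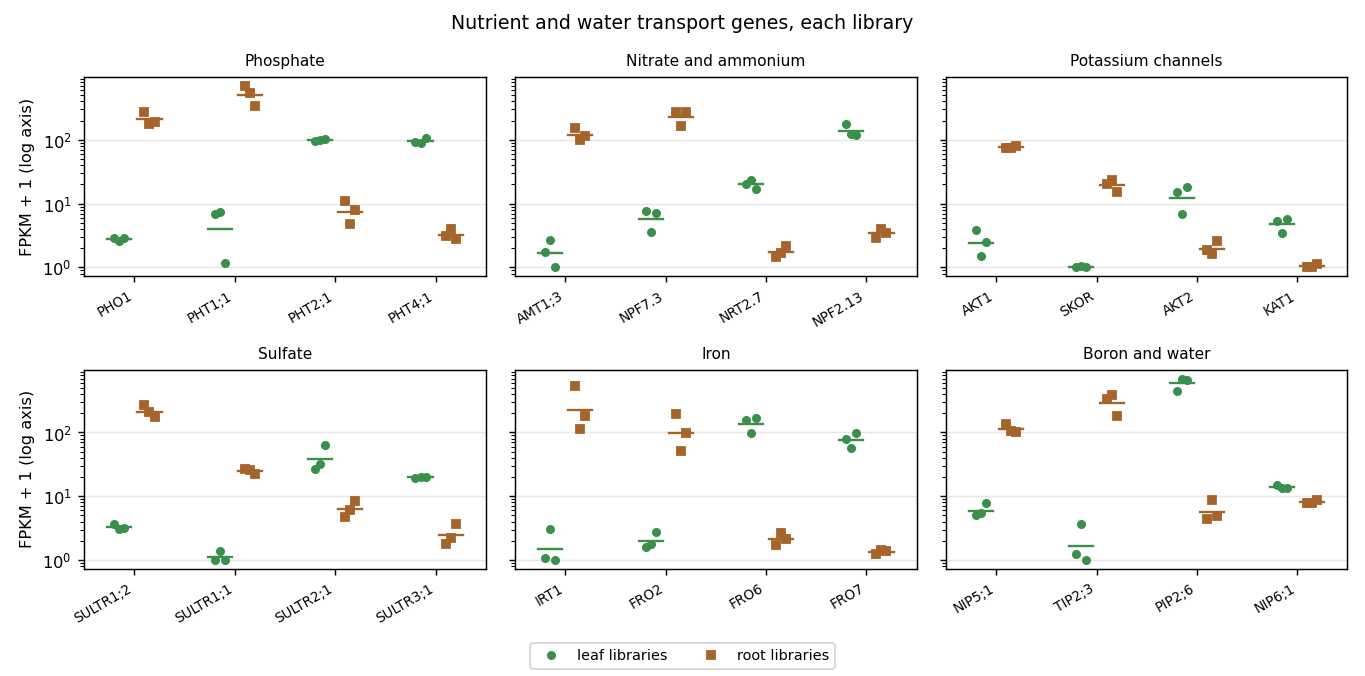
FPKM + 1 (log axis) in each of the 3 leaf (green circles) and 3 root (brown squares) libraries for carriers and channels of Pi, nitrogen, potassium, sulfate, iron, boron and water, with lines at the means on the log scale. In each panel the pair on the left stands higher in root and the pair on the right higher in leaf.

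Aquaporins, the water channels, were abundant in both organs: 17 of 26 were higher in root and 2 in leaf, or 13 and 6 after scaling. The shares of all genes tested were 44.9% and 16.8%, or 30.4% and 23.6% after scaling. The scaled leaf share of this list was near that of all genes. PIP1;1 was at 304, 402 and 418 FPKM in leaf and 2496, 2847 and 1350 in root (2.51 ± 0.34) and the tonoplast channel TIP2;3 at 0.22, 2.72 and 0 in leaf and 330, 387 and 183 in root (7.44 ± 0.49). PIP2;6 was the reverse, at 452, 686 and 660 in leaf and 3.38, 7.81 and 3.95 in root (-6.68 ± 0.32). The calls of PIP2;1, PIP1;2 and PIP1;3 towards root, all at 1.2 to 1.36, did not stand after scaling.

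Defence genes also differed between the organs. The ER body system of the mustard family pairs a beta-glucosidase with lectins and specifier proteins, and 19 of 26 genes of the myrosinase list were higher in root, 5 in leaf. With PYK10 stood its lectin partners JAL33 (9.01 ± 0.68) and JAL30† (7.19 ± 0.33), BGLU22† (8.04 ± 0.36), the ER body protein NAI2 (0.32, 0.82 and 0 FPKM in leaf and 280, 156 and 548 in root, 7.75 ± 0.44) and its regulator NAI1 (5.40 ± 0.38). The classical myrosinases were split. TGG1, of guard cells and phloem idioblasts, was at 243, 404 and 664 FPKM in leaf and 0.31, 0.05 and 3.94 in root (-7.74 ± 0.57), and TGG2 differed by -6.94 ± 0.55. The root myrosinase TGG5† was at 0, 0.21 and 0 in leaf and 93.0, 60.9 and 58.2 in root (6.04 ± 0.29). ESM1, which steers glucosinolate breakdown, was at 802, 605 and 993 in leaf and 0.22, 0.50 and 0.15 in root (-9.26 ± 0.27), and the specifier protein ESP differed by -6.35 ± 0.27, while the nitrile specifiers NSP1† (4.19 ± 0.28), NSP3 (4.79 ± 0.33) and NSP4† (4.0 ± 0.42) were higher in root and NSP5 did not differ detectably (0.07 ± 0.22). Several of these genes belong to families with near-identical copies, as the daggers show.

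Glucosinolate synthesis used different copies at the same steps. For the aliphatic kind, made from methionine, 8 of 19 genes were higher in leaf (11 after scaling), 2 in root and 9 did not pass. Chain elongation had MAM3 in root (33.4, 15.5 and 23.0 FPKM in leaf and 405, 350 and 475 in root, 4.09 ± 0.31) and MAM1 in leaf (503, 270 and 597 against 156, 103 and 172, -1.62 ± 0.35). The first core step had CYP79F2 in root (6.28, 2.59 and 4.83 FPKM in leaf and 77.7, 40.2 and 69.6 in root, 3.52 ± 0.36) and CYP79F1 in leaf (242, 104 and 342 against 0.32, 0.05 and 0, -7.53 ± 0.41). The regulator MYB28 was called higher in leaf only after scaling (-0.82 ± 0.33), and MYB29 was at 31.2, 15.1 and 46.0 in leaf and at 0 in root. For the indole kind, made from tryptophan, 9 of 16 genes were higher in root and 1 in leaf, or 6 and 2 after scaling. The shares of all genes tested were 44.9% and 16.8%, or 30.4% and 23.6% after scaling. CYP81F4† was at 0.92, 5.08 and 0.30 FPKM in leaf and 618, 451 and 705 in root (7.88 ± 0.50), with the entry enzymes CYP79B2 (2.55 ± 0.26) and CYP79B3 (2.45 ± 0.22) and the regulator MYB34 (2.2 ± 0.36). PAD3, the last step of the antifungal camalexin, did not pass, with 19.3, 2.36 and 0.81 FPKM in leaf and 6.94, 4.44 and 10.2 in root.

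Terpene and coumarin genes were higher in root. All 19 tested genes of the triterpene clusters and root terpene synthases were higher in root, and the list summed to 0 to 3.78 FPKM per leaf library and 495 to 530 per root library. The thalianol genes THAS1, CYP708A2, CYP705A5 and THAA2, which act in 1 pathway and lie next to each other in the genome, were at 3.67, 12.7 and 20.9, at 14.9, 34.2 and 33.1, at 13.9, 29.5 and 49.9 and at 16.3, 25.4 and 19.3 FPKM in root. The terpene synthase gene TPS20 was at 0 in leaf and 24.9, 27.7 and 30.7 in root (4.84 ± 0.26). Of 8 coumarin genes, which make iron-binding phenolics, 7 were higher in root, led by S8H (6.39 ± 0.41), F6'H1 (3.69, 0.94 and 0.14 FPKM in leaf and 198, 194 and 121 in root, 6.27 ± 0.48) and the exporter ABCG37 (5.16 ± 0.41).

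Of 18 lignin genes, 15 were higher in root and 2 in leaf, or 13 and 2 after scaling. The entry enzymes PAL1 (4.47 ± 0.41), PAL2 (3.44 ± 0.32) and PAL4 (4.64 ± 0.26) and C4H (51.9, 49.8 and 26.1 FPKM in leaf and 674, 563 and 539 in root, 3.82 ± 0.31) went to root, and PAL3 (-1.68 ± 0.36) and the syringyl-branch hydroxylase F5H1 (89.2, 99.9 and 76.2 in leaf and 18.7, 22.6 and 21.7 in root, -2.02 ± 0.24) to leaf. Of 12 flavonoid genes, 7 did not pass, or 6 after scaling. The chalcone synthase CHS ranged from 32.1 to 279 FPKM among leaf libraries and from 112 to 146 among root libraries (0.48 ± 0.63), and DFR (60.1, 5.01 and 19.7 against 9.79, 19.6 and 63.2) overlapped fully. Leaf replicate 1 was the highest leaf library for CHS, DFR, F3'H, LDOX and UF3GT.

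Hormone genes differed by hormone. Cytokinin synthesis and export had 12 of 16 genes higher in root and 1 in leaf, or 10 and 2 after scaling. The isopentenyltransferase IPT5 (0, 0.48 and 0 FPKM in leaf and 45.2, 61.9 and 30.1 in root, 5.30 ± 0.34), the trans-zeatin hydroxylases CYP735A2 (4.86 ± 0.27) and CYP735A1 (3.56 ± 0.25) and ABCG14, which sends cytokinin up the xylem (4.66 ± 0.29), were in root, and the oxidase CKX7 (-2.59 ± 0.30) in leaf. For auxin carriers, PIN2 (0.17, 0.65 and 0 FPKM in leaf and 29.3, 20.7 and 30.3 in root, 4.46 ± 0.31) and the influx carrier LAX3 (3.62 ± 0.37) were higher in root and PIN3 (-1.53 ± 0.31), PIN4 (73.2, 85.5 and 88.2 against 7.53, 3.99 and 6.10, -3.63 ± 0.28) and PIN7 (-2.01 ± 0.26) in leaf. Of the 4 tested strigolactone genes, CCD8 (2.23 ± 0.56), MAX1 (27.8, 22.1 and 17.9 FPKM in root against 4.59, 5.48 and 3.15) and LBO (2.46 ± 0.35) were higher in root and D27 (1.34, 1.39 and 3.02 FPKM in leaf and 0, 0.11 and 0.45 in root, -1.27 ± 0.30) in leaf.

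The list of jasmonate synthesis and storage proteins was divided, with 8 of 15 genes higher in leaf and 6 in root, or 8 and 4 after scaling. LOX2 was at 640, 254 and 516 FPKM in leaf and 0, 0.06 and 0.20 in root (-8.66 ± 0.35), and LOX1, a lipoxygenase of another specificity, at 3.65, 0.76 and 2.67 in leaf and 401, 151 and 346 in root (6.48 ± 0.45). The allene oxide cyclases AOC2 (548, 533 and 470 FPKM in leaf and 1.85, 2.79 and 2.25 in root, -7.30 ± 0.24) and AOC1 (-5.99 ± 0.29) were in leaf, AOC3 (3.66 ± 0.58) in root, and AOC4 (0.36 ± 0.32) did not differ detectably. The storage proteins VSP1 (1.88 ± 0.47) and VSP2 (1.59 ± 0.50) were higher in root, VSP2 not after scaling.

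Light signalling and clock genes were mixed. Of 22 genes, 8 were higher in leaf, 5 in root and 9 did not pass, or 10 in leaf and 3 in root after scaling. PIF4, a factor of growth in shade and warmth, was at 158, 184 and 172 FPKM in leaf and 1.44, 0.84 and 3.63 in root (-5.97 ± 0.35), PIF5 differed by -5.68 ± 0.30, and the blue light receptors PHOT1 (-3.96 ± 0.48) and PHOT2 (-4.43 ± 0.35) were higher in leaf as well. HY5, a factor that acts against the PIF class, was at 1.66, 2.18 and 0.83 FPKM in leaf and 39.1, 76.4 and 43.4 in root (4.37 ± 0.35), and its homologue HYH at 0.91, 1.05 and 1.00 in leaf and 18.2, 22.1 and 19.9 in root (3.40 ± 0.26). Of the core clock, TOC1 (-0.11 ± 0.29), GI (-0.34 ± 0.44) and ELF3 (0.58 ± 0.37) did not pass, and the morning genes LHY (1.68 ± 0.25) and CCA1 (1.11 ± 0.27, not after scaling) were low in both organs and higher in root. No source used here gives the hour of harvest.

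Of 20 MADS-box and flowering-time genes, 10 were higher in root and 4 in leaf, or 9 and 5 after scaling. The list median of 0.73 was next to the 0.67 of all genes, and its shares of calls were near the 44.9% and 16.8% of all genes. AGL17 was at 0 in leaf and 19.4, 23.5 and 20.07 FPKM in root, AGL21 likewise at 0 and at 21.0, 24.99 and 32.5, and AGL12, AGL14 and AGL42 differed by 4.65 to 4.89. ANR1 of the same clade, a nitrate-linked root factor, was at 27.8, 10.6 and 31.6 in root and 0 in leaf. The flowering repressor SVP (284, 274 and 240 FPKM in leaf and 91.4, 124 and 156 in root, -1.13 ± 0.27) and its relative AGL24 (-2.56 ± 0.33) were higher in leaf, and the florigen gene FT, with a leaf mean of 0.98 FPKM, was not tested.

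Some reference genes of expression assays were not level between the organs on the deposited scale, and the list was placed much like all genes tested. Of 14, 6 were higher in root, near the 44.9% of all genes tested. After scaling 2 were higher in root, where the share of all genes was 30.4%. The list median was 0.68, next to 0.67 for all genes. ACT8 was at 236, 198 and 234 FPKM in leaf and 1104, 1167 and 994 in root (2.29 ± 0.24), GAPC1 differed by 1.39 ± 0.26, and both kept their call on scaling. ACT2 (1.26 ± 0.29), GAPC2 (1.26 ± 0.29), TIP41L (0.95 ± 0.24) and EF1A4† (0.83 ± 0.31) kept it on the deposited scale alone. ACT7 (0.25 ± 0.30), UBC21 (0.28 ± 0.45), MON1 (0.37 ± 0.29), YLS8 (0.39 ± 0.25), UBC9 (0.46 ± 0.30), PTB1 (0.63 ± 0.25), UBQ10† (0.67 ± 0.34) and PP2AA3 (0.69 ± 0.27) did not pass, which does not show that they are equal.

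The organ contrast was measured again in 3 sets of 6 libraries that share none with this one: Col-0 at 0 µM Pi, KO at 200 µM and OE at 200 µM, each fitted alone over the same 19146 genes. Of the 8602 genes higher in root, 7794 (90.6%) were called higher in root in Col-0 at 0 µM, 7501 (87.2%) in KO and 8351 (97.1%) in OE. Of the 3220 higher in leaf, 2834 (88%), 2600 (80.7%) and 2964 (92%) recurred. Calls in the opposite direction numbered 2, 15 and 20. Over all 19146 genes, these sets called 10108, 9415 and 11575 higher in root and 3192, 2992 and 3657 higher in leaf. Of the 5231 genes that differed by at least 2 on the log2 scale, 5161 (98.7%), 5136 (98.2%) and 5200 (99.4%) recurred. In each of the 3 sets, all 49 photosystem genes, all 27 root hair genes, all 19 terpene genes, all 19 suberin genes called, all 7 ferredoxin and reductase genes and all 24 called genes of the myrosinase list were called in the direction they had in Col-0 at 200 µM. The clock and light list recurred least often, with 8 of 13 calls in all 3 sets. Among all genes called in Col-0 at 200 µM, 9496 of 11822 recurred in all 3 sets.

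**Figure D5:**
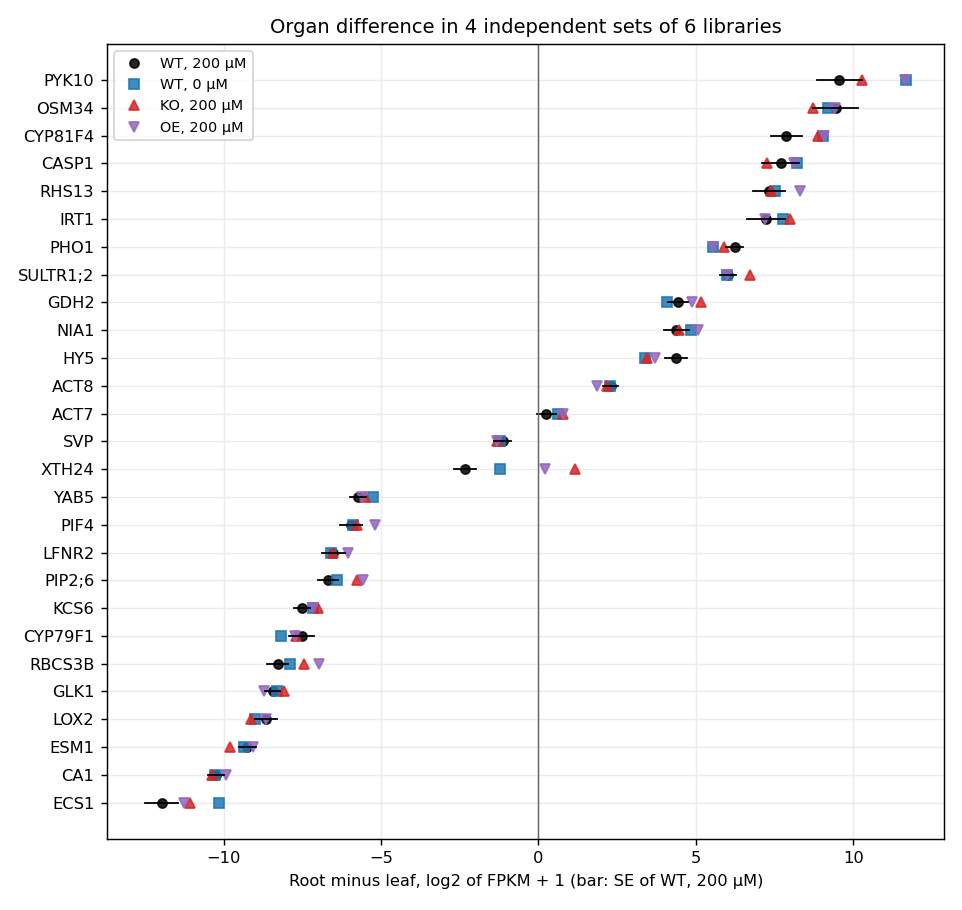
Log2 difference, root minus leaf, of 27 named genes in Col-0 at 200 µM Pi (black, with SE), Col-0 at 0 µM (blue), KO at 200 µM (red) and OE at 200 µM (purple), each from 6 libraries of its own. The 4 symbols of a gene lie close together beside the range between genes, and XTH24 is the gene whose symbols lie on both sides of 0.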

How the data were processed

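The deposited table held 1 value per gene and library for 36 libraries, and the 6 of Col-0 at 200 µM Pi were used for the main comparison. Neither the labels nor the header names the unit; the deposited values were taken as FPKM made by the authors, because each library's values times coding length in kilobases sum to nearly the same total. Per the submitters' processing notes, the tools were Trimmomatic, HISAT2 2.2.1 and DESeq2, with the build TAIR10. No source used here gives the counting tool, its strand setting or the gene models, and all libraries carry the same batch label. Genes whose average over the 6 libraries reached 1 FPKM were fitted as log2(FPKM + 1) with limma 3.58.1 (trend, R 4.3.3), adjusted by Benjamini-Hochberg at 0.05. A fold change on this scale understates the change of low genes. No count test was used, since the table holds no counts, and no interval or floor from depth was computed. The fit was tested on simulated data. Tables were handled with Python 3.11.15 and pandas 2.3.3.

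Lists and members were chosen with earlier results of these data known. They comprised 35 lists with 733 members, of which 711 matched by name, and 4 families found by annotation. The rule for named genes took the 15 largest differences each way (no overlap between organs, at least 10 FPKM in the higher), the 10 highest levels per organ, up to 4 called members each way per list or family, and all ferredoxin, nitrogen assimilation, strigolactone and reference genes. Other list members given as examples were chosen after their values were seen. Names and coding lengths came from the RefSeq annotation of TAIR10.1. The shared words and exon overlaps behind the daggers came from the same annotation and its genome sequence. The test of whether the organ difference differs between groups was added after the data were seen. The same replicate number in leaf and root was not taken to pair the libraries, which the closing section takes up.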

Additional observations from a re-analysis of the deposited data

Results flagged for a closer look

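Whether the organ difference depends on genotype or Pi was tested as the difference between groups (limma over 12 libraries, 19146 genes). It passed for 4 genes in KO, 22 in OE and 0 in Col-0 at 0 µM Pi, where 1136 genes had an unadjusted p under 0.05. Each comparison shares the same 6 libraries of Col-0 at 200 µM Pi. The Col-0 leaf mean at 200 µM was above the other genotype's in 4 of the 4 genes of KO and in 19 of the 22 of OE.

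In KO the root-minus-leaf difference of the gene AT4G16563 exceeded that of Col-0 by 4.74 (SE 0.59, adjusted p = 0.0171, limma). Its Col-0 means were 78.9 FPKM in leaf and 13.6 in root, and those of KO 3.33 and 17. FLA13, a fasciclin-like arabinogalactan protein gene, differed by 3.0, with a leaf mean of 155 FPKM in Col-0 and 17.9 in KO and a root mean of 18.9 in KO. EXL3 differed by 3.46, with leaf means of 224 and 26.4 FPKM and root means of 74.6 and 104. SCPL34, a carboxypeptidase-like gene, differed by 2.77, with leaf means of 70.3 and 14.8 FPKM and root means of 9.25 and 14.2. AT4G16563, EXL3 and SCPL34 also passed in OE, in the same direction, so their shift was not particular to KO. Their OE leaf means were 3.29, 31.1 and 18.5 FPKM. FLA13 did not pass in OE.

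In OE the nitrate carrier NRT1.1 differed by 2.12 (SE 0.35, adjusted p = 0.0393, limma), with a leaf mean of 84.6 ± 9.71 FPKM in Col-0 (SD, n = 3) and 27.4 in OE and root means of 183 ± 58.6 and 260. XTH24, a wall-modifying enzyme gene, differed by 2.55 (SE 0.40, adjusted p = 0.0393, limma), with leaf means of 434 ± 78.4 and 55.9 FPKM and root means of 90 ± 41.5 and 64.2.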

How the results depend on the processing

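Against 8602 genes higher in root and 3220 higher in leaf, testing against a log2 difference of 1 (limma's treat) gave 4010 and 1884, removing each library's trend with coding length gave 5446 and 5580, and removing it with a replicate block gave 5470 and 5526. Scaling by the median of ratios gave 5824 and 4520. Leaving out each library in turn gave 7248 to 8213 and 2893 to 3192. The replicate block alone gave 9357 and 3412. The replicate numbers are not taken as pairing. Deviations of same-numbered leaf and root libraries correlated at 0.133, 0.373 and 0.036, and leaf 1 correlated best with root 3, at 0.216. The 0.373 of replicate 2 was the highest of all pairs. With 3 libraries of each organ, these values cannot show whether the numbers pair them. A pseudocount of 0.1 gave 8258 and 3146, and a minimum of 5 FPKM 6154 and 2686. Of the 286 named genes, none that passed in the main fit changed direction under these alternatives. Genes that did not pass could change sign, such as PRXR1, at 0.18 and at -0.41 after median-of-ratios scaling. Among them treat ended 33 calls, median-of-ratios scaling 11, the length trend 8, and leaving out a library 2 to 7. Genes over 4000 bases long stood at -0.71 in leaf replicate 2 and -0.59 in root replicate 2, against 0.20 and 0.49 in replicates 1, and the cause was not tested. Values near 0 are limited by depth, most in leaf replicate 3.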

Other observations

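With a mean of at least 10 FPKM in an organ and 0 in every library of the other, 89 genes were found in root and 67 in leaf. In the other organ of Col-0 at 0 µM Pi, KO and OE, 88 of the 89 and 64 of the 67 stayed under 1 FPKM, with highest means of 1.07 and 1.17, but only 36 and 29 were at 0 there in all 3 groups. The root set held the signalling peptide genes CLE2 (155 ± 138 FPKM, SD, n = 3) and CLE7 (23.0 ± 16.2), the nicotinamidase gene NIC3 (99.7 ± 25.9) and the lipase gene GLIP2 (24.9 ± 2.33). The leaf set held the transcription factor ZFP8 (98.2 ± 8.56) and RGF9 (471 ± 102), annotated as a root meristem growth factor.

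Wall and oxidation families were also divided. Of 56 class III peroxidases tested, 47 were higher in root and 1 in leaf, or 46 and 2 after scaling by the median of ratios. Of 25 expansins, 15 were higher in root, such as EXPA18 (5.70), and 8 in leaf, such as EXPA5 (-5.82), or 13 and 9 after scaling. Of 26 XTH wall enzymes, 18 were higher in root, led by XTH14 (6.58), and 5 in leaf, led by XTH6 (-6.68), or 16 and 6 after scaling. Of 146 cytochrome P450 genes, 78 were higher in root and 41 in leaf, or 70 and 49 after scaling. Beside these counts, 44.9% of all genes tested were higher in root and 16.8% in leaf, or 30.4% and 23.6% after scaling.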
